A study of Mus musculus with 6 samples.

Results

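The 10 genes described here are the heat shock factor *Hsf1* and 9 heat shock proteins of the cytosol and the mitochondria, namely *Hspa8*, *Hspa1a*, *Hspa1b*, *Hsp90aa1*, *Hsp90ab1*, *Hsph1*, *Dnajb1*, *Hspd1* and *Hspe1*. They were taken by symbol from the 46959 rows of the deposited table of expression values, and each symbol matched 1 row. The table holds RNA from haematopoietic stem cells (HSCs) sorted from mouse bone marrow, with 3 control and 3 MaeaCsf1r-Cre libraries, each made from about 2000 cells that the authors pooled from 2 mice. In MaeaCsf1r-Cre mice *Maea*, the gene of an E3 ubiquitin ligase subunit, is deleted through floxed alleles and a Cre driven by *Csf1r*. This promoter is best known from mononuclear phagocytes, and *Maea* is deleted in macrophages of the same animals too. The paper reports deletion at high efficiency in haematopoietic stem and progenitor cells. The mice were 8 weeks old by the series' design text, for which the study's methods give a range of ages, and the controls were littermates whose alleles the labels do not give. The comparison asks whether HSCs of MaeaCsf1r-Cre mice carry more or less RNA of the cell's protein folding machinery than those of controls.

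Heat shock proteins are chaperones that hold unfolded polypeptides and help them fold. In the cytosol HSP70 proteins take up a client with the help of J-domain proteins, are reset by exchange factors and pass some clients on to HSP90, while in mitochondria the chaperonin HSP60 with its lid HSP10 folds imported proteins. When unfolded protein accumulates, the transcription factor HSF1 binds heat shock elements, which are inverted repeats of the unit nGAAn, and raises transcription of inducible members such as *Hspa1a* and *Hspa1b*, whereas *Hspa8* and *Hsp90ab1* are expressed constitutively.

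The regulatory sequences are shown for the members whose expression they help to place, the near-identical inducible HSP70 pair and the chaperonin pair that shares 1 promoter. RefSeq promoter windows of GRCm38.p6, 300 bases long with 250 of them before the start, were found for 6 of the 10 genes, in 9 windows. *Hspd1* and *Hspe1* lie head to head on chromosome 1, and in RefSeq 215 bases separate the start of a *Hspd1* transcript at 55087932 from that of *Hspe1* at 55088148, while another *Hspd1* transcript starts farther out at 55088243. The 30 bases around the heat shock units of this stretch are printed on the strand of *Hspe1* (chr1:55088053-55088082), where the annotation also places the first exon of the longer *Hspd1* transcript. Capitals mark the run of units, which begins 89 bases before the start of *Hspe1* and, on the other strand, 144 bases before the inner start of *Hspd1*.
Hspd1-Hspe1 element: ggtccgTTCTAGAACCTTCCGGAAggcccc
The intronless genes *Hspa1a* and *Hspa1b* lie on the minus strand of chromosome 17, and their upstream 250 bases (chr17:34972157-34972406 and chr17:34959239-34959488) differ at 3 positions. Capitals mark the 2 units found in each, which begin 104 bases before the start.
Hspa1a upstream: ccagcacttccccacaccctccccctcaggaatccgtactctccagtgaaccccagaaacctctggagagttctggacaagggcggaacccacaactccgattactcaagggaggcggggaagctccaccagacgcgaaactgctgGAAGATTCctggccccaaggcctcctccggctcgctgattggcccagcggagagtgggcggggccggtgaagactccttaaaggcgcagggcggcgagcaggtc
Hspa1b upstream: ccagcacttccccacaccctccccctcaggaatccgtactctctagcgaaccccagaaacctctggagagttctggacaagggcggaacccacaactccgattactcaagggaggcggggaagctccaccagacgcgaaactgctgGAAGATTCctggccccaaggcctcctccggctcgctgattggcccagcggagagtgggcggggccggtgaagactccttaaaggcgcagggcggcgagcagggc
The motifs searched were 2 units (GAANNTTC or TTCNNGAA) and 3 units, the same runs extended to the right by NNGAA or NNTTC. They cover both strands, and a run of 3 units also holds matches to 2. Over all 32851 mouse promoter windows 0.603% held 3 units and 15.1% held 2. The window of *Hspe1* and 1 of the 2 windows of *Hspd1* held 3 units in the same shared stretch, and *Hsph1* held 3 units past its starts. The windows of *Hspa1a* and *Hspa1b* held 2 units only, and neither window of *Dnajb1* held these letters. Units with other letters or spacing were not searched, so further elements may have been missed.

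The libraries were scaled by the authors to library size (CPM, reads of a gene relative to the total), on totals of 32968000 to 39614000 reads in control and 44159000 to 60937000 in MaeaCsf1r-Cre libraries as read from the steps between low values. The deepest library was MaeaCsf1r-Cre replicate 1. A signal of 3 reads came to 0.0492 to 0.0910 CPM, for counting error only. *Maea* was 116 ± 7.29 CPM in control and 88.8 ± 12.0 CPM in MaeaCsf1r-Cre HSCs (SD, n = 3 each), without overlap and with a log2 fold change of -0.39 (limma adjusted p = 0.967, with the Benjamini-Hochberg method over 12955 genes). Reads of all its exons enter these values, and the share of cells that had lost the gene cannot be read from them. All 10 HSC markers passed the filter of 1 CPM in at least 3 libraries, with 8 lower and 2 higher on average in MaeaCsf1r-Cre HSCs, a median log2 fold change of -0.47 and 0 called. Of all 12955 genes tested 7895 were lower and 5060 higher on average. Blocked by replicate number 7 of the 10 reached an unadjusted p under 0.05, against 13.9% of all genes, and their summed level was 1030 to 1593 CPM in control and 713 to 1288 CPM in MaeaCsf1r-Cre libraries. Of 10 macrophage markers 7 passed, all lower on average in MaeaCsf1r-Cre HSCs with 0 called. Of the 7, 4 were lower without overlap, against 6.06% of all genes, and 4 reached an unadjusted p under 0.05, against 3.99%. Among these 4, *C1qa*, *C1qb* and *C1qc* passed the filter through the control libraries alone, which fixed their lack of overlap in advance. These counts can therefore not be weighed against the shares of all genes. *Cd163* was at 3.90 CPM or more in every library. The summed level of the 10 was 25.4 to 73.1 CPM in control and 7.45 to 51.9 CPM in MaeaCsf1r-Cre libraries. In bulk RNA a smaller number of cells of a type and less RNA per cell cannot be told apart.

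The 10 genes spanned more than 3 orders of magnitude in level. Per kilobase of transcript, *Hsp90ab1* at 671 and *Hspa8* at 646 CPM stood first, with CPM percentile ranks of 99.90 and 99.88 among genes tested. They were followed by *Hsp90aa1* at 153, *Hspe1* at 137, *Hspd1* at 83.4, *Dnajb1* at 33.8, *Hsf1* at 17.5 and *Hsph1* at 16.9 CPM per kilobase, as means over 6 libraries. The inducible *Hspa1b* and *Hspa1a* came last at 0.495 and 0.252 CPM per kilobase. Levels of *Hsp90ab1* and *Hspa8* overlapped between libraries, as did those of *Hsp90aa1* with *Hspe1* and of *Hsf1* with *Hsph1*, and within each of these pairs the order changed between libraries. This order holds for the row of each gene alone, and *Hspa8* and *Hsp90aa1* share sequence with other rows, as described below. With those rows added *Hspa8* came to 2584 to 3383 CPM, above *Hsp90ab1* at 1500 to 1803 CPM. Per kilobase, *Hspe1* was above *Hspd1* in each of the 6 libraries, while in CPM without length correction *Hspd1* was above *Hspe1* in each. The levels of *Hspd1* (60.3 to 112 CPM per kilobase) lay above those of *Dnajb1* (29.6 to 37.0) in each library.

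**Figure D1:**
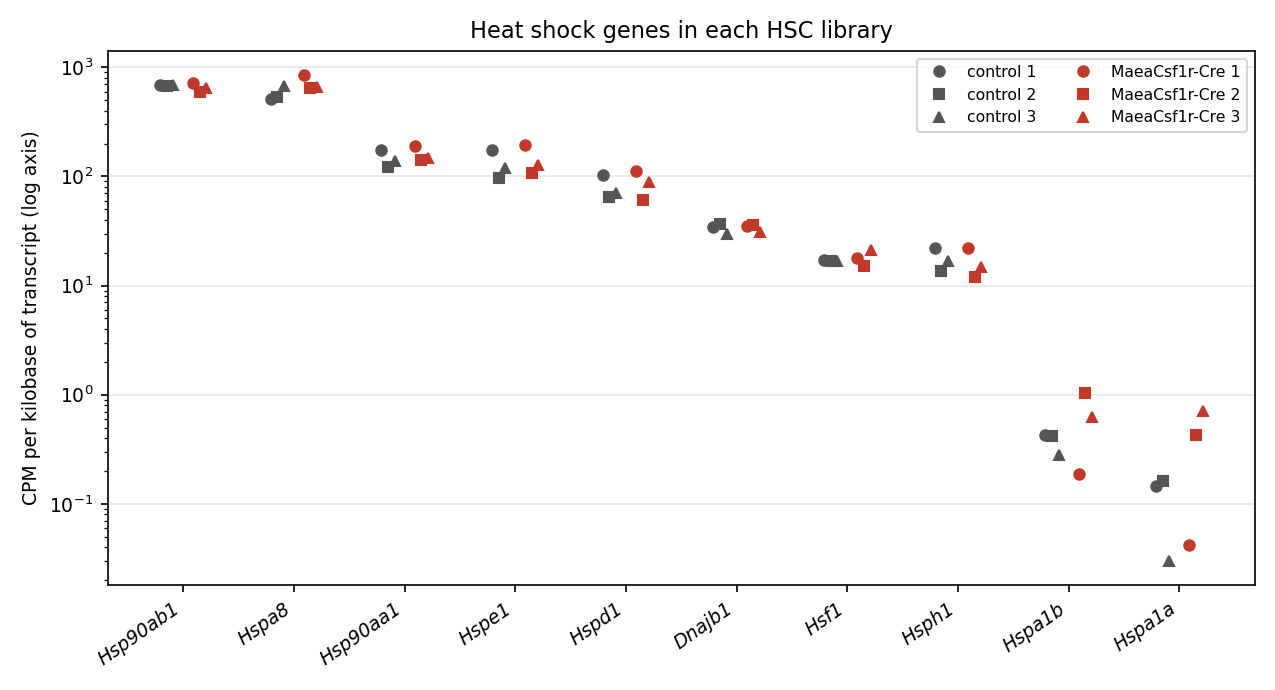
CPM per kilobase of transcript on a log axis for each of the 10 genes, 1 point per library, with controls in grey, MaeaCsf1r-Cre libraries in red and a symbol for each replicate number. The genes run from *Hsp90ab1* at a mean of 671 to *Hspa1a* at 0.252 CPM per kilobase, and grey and red points overlap for each gene.

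None of the heat shock genes passed the test between genotypes. Of the 9 that passed the filter, 0 were called in limma's moderated test on log2(CPM + 1), at an adjusted p under 0.05, and 0 reached an unadjusted p under 0.05. Over all genes tested 0.00772% were called and 3.99% reached an unadjusted p under 0.05. In a fit blocked by replicate number 0 of the 9 were called and 0 reached an unadjusted p under 0.05, against 0.00772% and 13.9% of all genes. The groups did not overlap for 0 of the 9, against 8.55% of all genes. Log2 fold changes, MaeaCsf1r-Cre minus control, ran from -0.12 for *Hsph1* to 0.31 for *Hspa8*, with 7 above 0 and 2 below. Their median was 0.11, beside -0.06 over all genes tested, of which 5060 were above 0 and 7895 below. Within the same-numbered pairs the median difference of the 9 genes was 0.08, -0.05 and 0.09 on the log2 scale, so the sign was not shared by the 3 pairs.

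**Figure D2:**
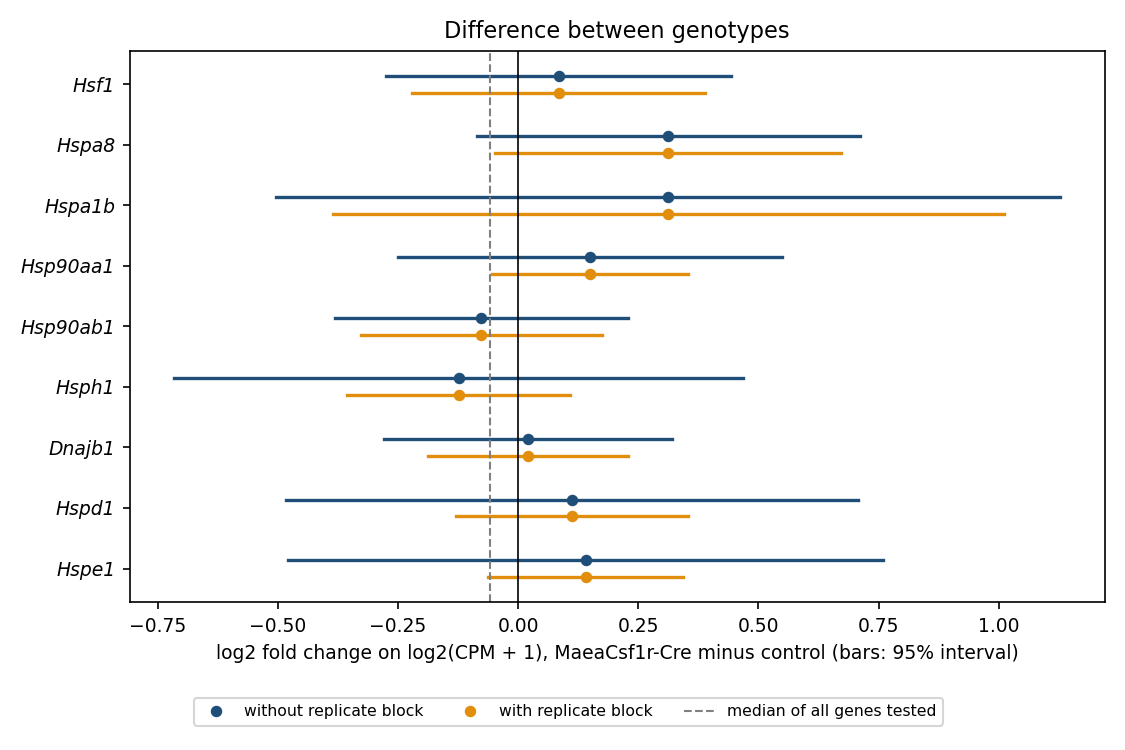
Log2 fold change of the 9 genes tested, MaeaCsf1r-Cre minus control on log2(CPM + 1), with its 95% interval from limma without and with a block for replicate number. Each interval includes 0, and the dashed line marks the median of all genes tested at -0.06.

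*Hsf1*, which encodes the transcription factor of the heat shock response, lies on chromosome 15 from 76477422 to 76501913 and has 13 exons. Its level in CPM was 35.5, 35.3 and 34.8 in the controls and 37.6, 31.3 and 44.1 in MaeaCsf1r-Cre HSCs, in the order of the replicate numbers, as for all genes that follow. The control libraries lay within 1 CPM of each other and inside the range of the MaeaCsf1r-Cre libraries. The genotypes differed by 0.08 on the log2 scale (standard error, SE, 0.16, limma adjusted p = 0.973). HSF1 is regulated mainly as a protein, by release from chaperones, trimer formation and phosphorylation, and these values measure its RNA alone.

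*Hspa8* on chromosome 9 (40800984 to 40810087, 9 exons) encodes HSC70, the constitutive cytosolic HSP70. Its log2 fold change equalled that of *Hspa1b* to 2 decimals, was above those of the other 7 genes, and depended on which rows were counted. The *Hspa8* row held 1230, 1290 and 1613 CPM in the controls and 2036, 1539 and 1566 CPM in MaeaCsf1r-Cre HSCs. Control replicates 1 and 2 were below each MaeaCsf1r-Cre library, and control replicate 3 was above 2 of them. On the log2 scale the row was 0.31 higher in MaeaCsf1r-Cre HSCs (SE 0.17, limma adjusted p = 0.967, or 0.417 once blocked by replicate number).

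The transcript of *Hspa8* shares 63.4% of its 100-base windows, on either strand, with other annotated genes, so reads there can have more than 1 place to align. By the paper's methods the reads were longer than these windows, so some may still have had only 1 place. This share was 47.5% for *Hsp90aa1*, 26.9% for *Hspd1* and 22.4% for *Hspe1*, and 0 windows were shared for *Hsf1*, *Hsp90ab1*, *Hsph1* and *Dnajb1*. The 3 rows of the table that each shared at least 5% of its windows were *Gm15459*, a processed pseudogene on chromosome 5 (5781615 to 5783555), *Gm26825*, a non-coding RNA gene that covers the same stretch on the opposite strand (5781530 to 5783636), and *Gm8355*, a processed pseudogene on chromosome 10. *Gm15459* was listed at 760, 640 and 620 CPM in the controls and 793, 624 and 598 CPM in MaeaCsf1r-Cre HSCs. *Gm26825* was listed at 1038, 490 and 161 CPM in the controls and 210, 160 and 172 CPM in MaeaCsf1r-Cre HSCs. Control replicates 1 and 2, the libraries with the lowest *Hspa8*, had the highest *Gm26825*.

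Summed over the 4 rows, the level was 3378, 2674 and 2664 CPM in the controls and 3383, 2584 and 2607 CPM in MaeaCsf1r-Cre HSCs. Libraries with the same replicate number then lay close together, and the groups had means of 2905 ± 410 and 2858 ± 455 CPM (SD, n = 3 each). For the sum the log2 fold change came to -0.03 (SE 0.18, limma adjusted p = 0.990), against 0.31 for the *Hspa8* row alone. The *Hspa8* row took 36.4, 48.3 and 60.5% of the sum in the controls and 60.2, 59.6 and 60.1% in MaeaCsf1r-Cre HSCs. Control replicates 1 and 2 thus lay apart from the other 4 libraries, which ran from 59.6 to 60.5%. Genotype accounted for 43.7% of the sum of squares of the *Hspa8* row over the 6 libraries and replicate number for 11.5%, while for the sum of the 4 rows these shares were 0.586% and 99.0%. The summed rows were examined after the values had been seen.

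**Figure D3:**
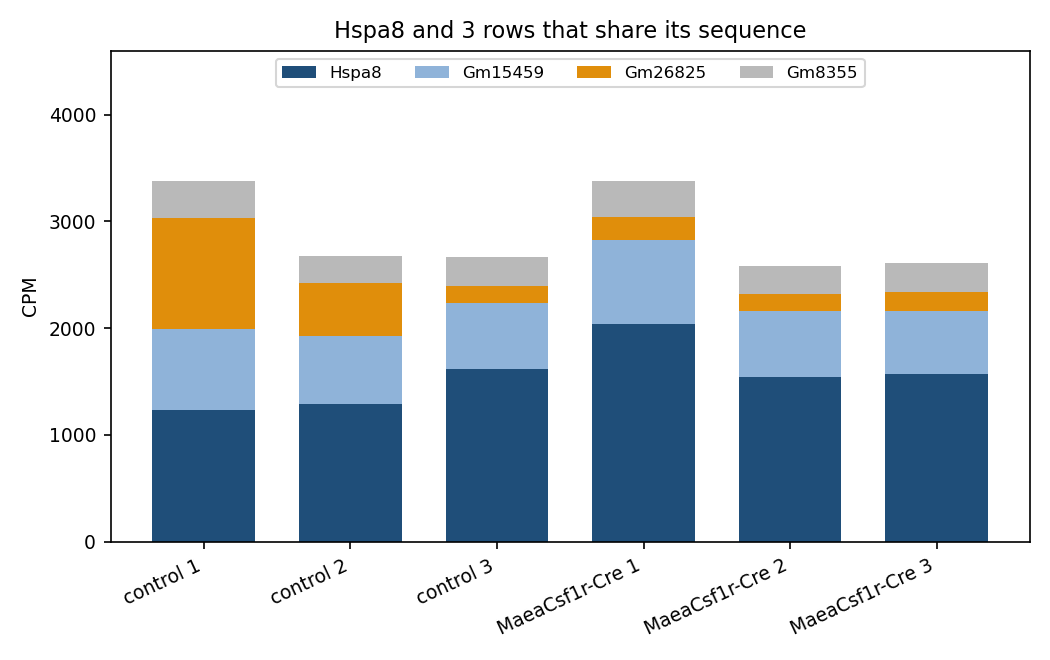
Stacked CPM of *Hspa8* and of the 3 rows that share its sequence, 1 bar per library. The *Hspa8* segment is lowest in control replicates 1 and 2, where *Gm26825* is highest at 1038 and 490 CPM, and the whole bars match between libraries of the same replicate number.

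*Hspa1a* and *Hspa1b*, the stress-inducible HSP70 genes whose upstream sequences are printed above, each have 1 exon and lie on chromosome 17 (34969190 to 34972156 and 34956436 to 34959238). *Hspa1a* was listed at 0.432, 0.478 and 0.0897 CPM in the controls and at 0.125, 1.27 and 2.09 CPM in MaeaCsf1r-Cre HSCs, and it did not pass the filter. *Hspa1b* was 1.20, 1.18 and 0.787 CPM in the controls and 0.531, 2.90 and 1.74 CPM in MaeaCsf1r-Cre HSCs. For both genes MaeaCsf1r-Cre replicates 2 and 3 were above all controls, while MaeaCsf1r-Cre replicate 1 was below control replicates 1 and 2. The values stand for 3.1 to 92.9 reads of *Hspa1a* and 26.9 to 128.2 reads of *Hspa1b* per library.

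For *Hspa1b* the log2 fold change came to 0.31 (SE 0.35, limma adjusted p = 0.967), and without a filter that of *Hspa1a* was 0.59 (SE 0.38, adjusted p = 0.895). The 2 transcripts shared 49.9% of the windows of *Hspa1b*, and only 2 of the 6 values of each gene came within 0.1 of a whole read, where *Hsf1* had 6 of 6. Their rows are therefore best read as a sum, which together with the overlapping row *Gm20481* (at most 0.00590 CPM) was 1.63, 1.65 and 0.876 CPM in the controls and 0.656, 4.18 and 3.83 CPM in MaeaCsf1r-Cre HSCs. For this sum the log2 difference was 0.55 (SE 0.44, limma adjusted p = 0.967). The log2 ratio of the pair to the *Hspa8* row alone was -10.0 ± 0.73 in control and -9.60 ± 1.73 in MaeaCsf1r-Cre HSCs (SD, n = 3 each, exact permutation test, two-sided, p = 0.6, where the smallest p possible is 0.1). In control replicates 1 and 2 that row took only 36.4 and 48.3% of its sum with the rows sharing its sequence. In the other libraries it took 59.6 to 60.5%, and a ratio to the sum was not tested. *Hspa1l*, the neighbouring testis-enriched HSP70 gene, was between 0.0707 and 0.350 CPM.

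Beside these low values stood the immediate early genes, which respond to cell handling. Of 10 such genes 9 passed the filter, all 9 were lower on average in MaeaCsf1r-Cre HSCs with a median log2 fold change of -0.52, and 0 were called. Over all genes tested 7895 of 12955 were lower on average. Their summed level was 385, 932 and 575 CPM in the controls and 197, 585 and 635 CPM in MaeaCsf1r-Cre HSCs. It was lowest in MaeaCsf1r-Cre replicate 1, where the *Hspa1a* and *Hspa1b* sum was lowest too. Elsewhere the orders parted. The immediate early sum was highest in control replicate 2, the *Hspa1a* and *Hspa1b* sum in MaeaCsf1r-Cre replicate 2, and on average the latter was higher in MaeaCsf1r-Cre HSCs. Blocked by replicate number, 5 of the 9 immediate early genes reached an unadjusted p under 0.05 in limma, against 13.9% of all genes. The part of cell handling in the levels of *Hspa1a* and *Hspa1b* was not tested.

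The cytosolic HSP90 genes are the more inducible *Hsp90aa1* on chromosome 12 (110690605 to 110702728) and the constitutive *Hsp90ab1* on chromosome 17 (45567775 to 45573271), each with 11 exons. *Hsp90ab1* was 1742, 1712 and 1748 CPM in the controls and 1803, 1500 and 1642 CPM in MaeaCsf1r-Cre HSCs. Its variation over the 6 libraries, an SD of 0.09 on the log2 scale, was smaller than that of all but 4.69% of the genes tested. Its log2 difference between genotypes was -0.08 (SE 0.13, limma adjusted p = 0.973).

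*Hsp90aa1* was 569, 402 and 459 CPM in the controls and 627, 468 and 487 CPM in MaeaCsf1r-Cre HSCs. It was higher in the MaeaCsf1r-Cre library of each same-numbered pair, while the groups overlapped. On average the log2 difference was 0.15 (SE 0.17, limma adjusted p = 0.967, or 0.480 once blocked by replicate number). Of the 9 genes, *Hsp90aa1* and *Hspe1* were higher in MaeaCsf1r-Cre HSCs in 3 of 3 pairs and 0 were lower in 3 of 3, against 13.2% and 23.5% of all genes tested. The share of the *Hsp90aa1* row in its sum with the pseudogene rows *Gm12346* and *Gm5844* stayed within 73.2 to 74.2% in all 6 libraries. The log2 ratio of *Hsp90aa1* to *Hsp90ab1*, as CPM without length correction, was -1.88 ± 0.24 in control and -1.65 ± 0.12 in MaeaCsf1r-Cre HSCs (SD, n = 3 each). The difference was 0.23 (exact permutation test, two-sided, p = 0.3, where 0.1 is the smallest possible), with the ratio higher in 3 of 3 pairs.

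*Hsph1* on chromosome 5 (149614287 to 149636376, 18 exons) encodes HSP105, an HSP110 protein that exchanges nucleotide on HSP70. It was 84.0, 51.8 and 63.9 CPM in the controls and 84.3, 45.4 and 55.8 CPM in MaeaCsf1r-Cre HSCs. The replicate 1 libraries of both genotypes were the highest and differed by less than 1 CPM. Between genotypes the log2 difference was -0.12 (SE 0.26, limma adjusted p = 0.973). *Dnajb1* on chromosome 8 (83608193 to 83612653, 3 exons) encodes HSP40, the J-domain partner that brings clients to inducible HSP70. It was 102, 111 and 88.7 CPM in the controls and 106, 107 and 93.1 CPM in MaeaCsf1r-Cre HSCs, a log2 difference of 0.02 (SE 0.13, 95% interval -0.28 to 0.32, limma adjusted p = 0.989). *Dnajb1* had the smallest difference of the 9 genes.

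*Hspd1* on chromosome 1 (55077835 to 55088243, 12 exons) encodes the mitochondrial chaperonin HSP60, and *Hspe1* (55088132 to 55091307, 4 exons) encodes its lid HSP10. *Hspd1* was 252, 155 and 172 CPM in the controls and 271, 146 and 215 CPM in MaeaCsf1r-Cre HSCs. *Hspe1* was 135, 75.02 and 92.5 CPM in the controls and 150, 84.1 and 99.6 CPM in MaeaCsf1r-Cre HSCs. Both partners were highest in replicate 1 and lowest in replicate 2 of each genotype. Between genotypes *Hspd1* differed by 0.11 on the log2 scale (SE 0.26, limma adjusted p = 0.974) and *Hspe1* by 0.14 (SE 0.27, limma adjusted p = 0.973). Within the pairs *Hspe1* was higher in MaeaCsf1r-Cre HSCs by 0.15, 0.16 and 0.11 on the log2 scale (mean 0.14 ± 0.03, SD), a spread narrower than the difference (exact sign-flip permutation test, two-sided, p = 0.25, the smallest that 3 pairs allow). Blocked by replicate number its SE was 0.09, with a 95% interval of -0.06 to 0.34 and a limma adjusted p of 0.503.

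For the chaperonin partners the log2 ratio of CPM ran from 0.80 to 1.11 over the 6 libraries. Whether this range is narrower than for other pairs of genes was not tested. The log2 ratio of *Hspd1* to *Hspe1* was 0.95 ± 0.09 in control and 0.92 ± 0.17 in MaeaCsf1r-Cre HSCs (SD, n = 3 each, exact permutation test, two-sided, p = 0.8, where 0.1 is the smallest possible). The processed pseudogene *Hspd1-ps3* on chromosome 11 (41498737 to 41500458), which shares 25.8% of the windows of *Hspd1*, was listed at 98.0, 63.3 and 59.4 CPM in the controls and 106, 58.5 and 77.8 CPM in MaeaCsf1r-Cre HSCs. Its order over the libraries was close to that of *Hspd1*, and *Hspd1* took 71.1 to 74.4% of their sum. The other pseudogene rows named for *Hspd1* or *Hspe1* were at most 0.643 CPM, and 2 of them, *Hspe1-ps4* and *Hspe1-ps6*, were listed at 0 in all 6 libraries.

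Replicate number accounted for more of the variation of several heat shock genes than genotype did. It has more levels than genotype and so takes a larger share even of unrelated values. Each share is therefore best read beside that of all genes. Its share of the sum of squares of log2(CPM + 1) was 96.0% for *Hspe1*, 94.6% for *Hsph1*, 93.5% for *Dnajb1*, 91.2% for *Hspd1* and 85.7% for *Hsp90aa1*. It was 47.3% for *Hsp90ab1*, 42.4% for *Hsf1*, 39.9% for *Hspa1b* and 11.5% for *Hspa8*. So 5 of the 9 genes had a share over 50%, against 60.0% of all genes tested, and by this count they did not stand apart from the rest of the table. The median share was 85.7% over the 9 genes and 58.8% over all genes, and the median share of genotype was 8.35% and 12.8%.

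Over the 6 libraries, which differ in depth and in replicate number, *Hsp90aa1*, *Hspd1*, *Hspe1* and *Hsph1* varied together. Pearson's r on log2(CPM + 1) was 0.98 between *Hsp90aa1* and *Hspe1*, 0.95 between *Hspd1* and *Hspe1*, and 0.83 between *Hsp90aa1* and *Hsph1*, the lowest of the 6 pairs among these genes. *Hspa1a* and *Hspa1b* had an r of 0.81 with each other, and *Hspa1b*, at 0.531 to 2.90 CPM, one of -0.97 with *Hsp90ab1*, which varied little. These values were picked from all pairs of the 10 genes, and were not compared with pairs of other genes. The 8 erythroid markers, all above the filter, had their highest summed levels in replicate 1 of both genotypes, 7139 CPM in control and 7048 CPM in MaeaCsf1r-Cre HSCs, against 2630 to 4237 CPM in the other libraries. The part of these cells and of depth in the replicate pattern was not tested.

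**Figure D4:**
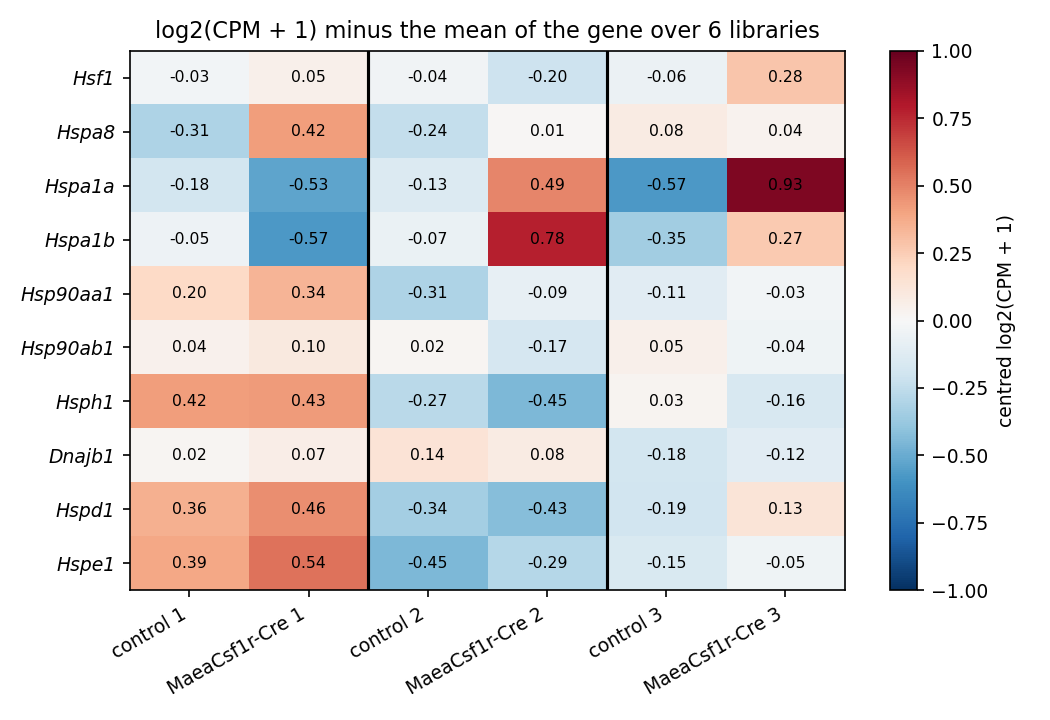
Log2(CPM + 1) of each of the 10 genes minus its mean over the 6 libraries, with libraries of the same replicate number side by side and red for higher, blue for lower. *Hsp90aa1*, *Hsph1*, *Hspd1* and *Hspe1* are red in both replicate 1 libraries, at 0.20 to 0.54, while *Hspa1a* and *Hspa1b* are highest in MaeaCsf1r-Cre replicates 2 and 3.

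The genes most like the heat shock genes were sought among 8299 protein-coding genes with a mean of at least 10 CPM, by Pearson's r over the 6 libraries. The mean centred profile of *Hspa1a*, *Hspa1b*, *Dnajb1* and *Hsph1* was highest in MaeaCsf1r-Cre replicates 2 and 3, as were *Hspa1a* and *Hspa1b*, while *Hsph1* was below its own mean there, at -0.45 and -0.16, and *Dnajb1* stood at 0.08 and -0.12. This averaged profile, which follows the lowest genes of the group, was matched best by *Emd* (r = 0.957), which encodes the nuclear envelope protein emerin, and further by *Ubald2* (0.934), *Scpep1* (0.912) and *B9d2* (0.907). The profile of *Hspa8*, *Hsp90ab1*, *Hspd1* and *Hspe1*, highest in MaeaCsf1r-Cre replicate 1, was matched best by *Dcun1d5* (r = 0.999), the condensin gene *Ncapg* (0.998), the proteasome ATPase gene *Psmc5* (0.997), the ribosome export gene *Nmd3* (0.994) and *Hras* (0.994). These are among the highest values of a search over all 8299 genes in 6 libraries.

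In the chaperone network around these genes no gene passed the test either. Of 101 chaperone and cochaperone genes in 9 lists, 89 passed the filter, limma called 0 in either direction and 3 reached an unadjusted p under 0.05 (*Dnaja4*, *Dnajb4* and *Hspb8*, all lower on average in MaeaCsf1r-Cre HSCs), against 3.99% of all genes. Blocked by replicate number 0 were called and 9 reached an unadjusted p under 0.05, against 13.9% of all genes. MaeaCsf1r-Cre HSCs were higher on average for 48 and lower for 41, with a median of 0.02 beside -0.06 for all genes. Over all genes tested they were higher for 5060 and lower for 7895. Between the groups 1 gene did not overlap with MaeaCsf1r-Cre higher, against 2.49% of all genes, and 4 did not overlap with MaeaCsf1r-Cre lower, against 6.06%. Of these 4, *Hspb8* passed the filter through the control libraries alone, which fixed its lack of overlap in advance.

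Among the HSF genes and regulators 3 of 6 passed the filter, and *Hsf2*, another heat shock factor, had a log2 difference of -0.17 (SE 0.21) at levels of 1.41 to 2.17 CPM. *Hsbp1*, whose product binds the trimer of HSF1, had a log2 fold change of -0.12. Of the HSP70 and HSP110 genes 9 of 12 were tested, 4 above and 5 below 0. *Hspa13*, a microsomal HSP70, was 28.3 ± 2.67 CPM in control and 23.3 ± 0.324 CPM in MaeaCsf1r-Cre HSCs (SD, n = 3 each) without overlap, a log2 difference of -0.26 (SE 0.14, limma adjusted p = 0.967), and *Hspa12b*, a distant HSP70 relative, one of -0.65 (SE 0.32).

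The 11 cytosolic J-domain genes were all tested, with 4 above and 7 below 0. *Dnaja4* was 17.1, 15.5 and 13.9 CPM in the controls and 12.0, 8.67 and 10.2 CPM in MaeaCsf1r-Cre HSCs, and *Dnajb4* was 34.5, 35.8 and 29.6 against 25.5, 21.0 and 28.6 CPM. Both were lower in each MaeaCsf1r-Cre library than in each control library, and neither passed the adjusted threshold. Their log2 fold changes were -0.55 and -0.40, with a limma adjusted p of 0.967 for each, or 0.25 and 0.321 once blocked by replicate number. Of the 9 exchange factors and regulators of HSP70, *Bag6*, which holds hydrophobic clients in the cytosol, was 85.6 ± 2.32 CPM in control and 93.3 ± 3.78 CPM in MaeaCsf1r-Cre HSCs (SD, n = 3 each) without overlap, a log2 difference of 0.12 (SE 0.11), and *St13*, which encodes the HSP70 cochaperone HIP, had one of -0.13.

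Of the 18 HSP90 and cochaperone genes 9 were above and 9 below 0, within -0.21 for *Chordc1* and 0.16 for *Aarsd1*. Small heat shock proteins were sparse, with 3 of 9 genes tested. *Hspb8*, which works with BAG3 in the removal of misfolded protein, was 1.55, 1.49 and 3.42 CPM in the controls and 0.181, 0.408 and 0.947 CPM in MaeaCsf1r-Cre HSCs. The log2 difference was -1.04 (SE 0.32, limma adjusted p = 0.967, or 0.198 once blocked by replicate number). *Hspb8* passed the filter through the control libraries alone, so the lack of overlap between its groups was fixed in advance. *Hspb6* had a log2 fold change of 0.07.

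Of the 18 mitochondrial chaperone and protease genes 11 were above and 7 below 0, with a median of 0.06. *Grpel2*, a nucleotide exchange factor of the mitochondrial HSP70, stood at -0.29 and *Yme1l1*, an inner membrane protease, at -0.26 on the log2 scale. Of the 14 genes for TRiC, the cytosolic chaperonin, and prefoldin, 12 were above and 2 below 0, with a median of 0.08 and 0 called. Among all genes tested 5060 were above and 7895 below 0. *Pfdn6* stood at 0.30 (SE 0.19) and *Cct2* at 0.15 (SE 0.14) on the log2 scale, each higher in MaeaCsf1r-Cre HSCs in 3 of 3 pairs. Of 22 targets of HSF1, 19 were tested, with 9 above and 10 below 0 and a median of -0.02. *Serpinh1*, the collagen chaperone HSP47, was 8.58, 6.18 and 15.6 CPM in the controls and 0.968, 3.13 and 11.6 CPM in MaeaCsf1r-Cre HSCs (log2 fold change -1.16, SE 0.63), and *Dnaja1*, a J-domain partner of HSP70, had a log2 fold change of -0.23. Of the immediate early genes, *Fosb* had a log2 difference of -0.74 (SE 0.50) and *Egr1* one of -0.73 (SE 0.58).

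**Figure D5:**
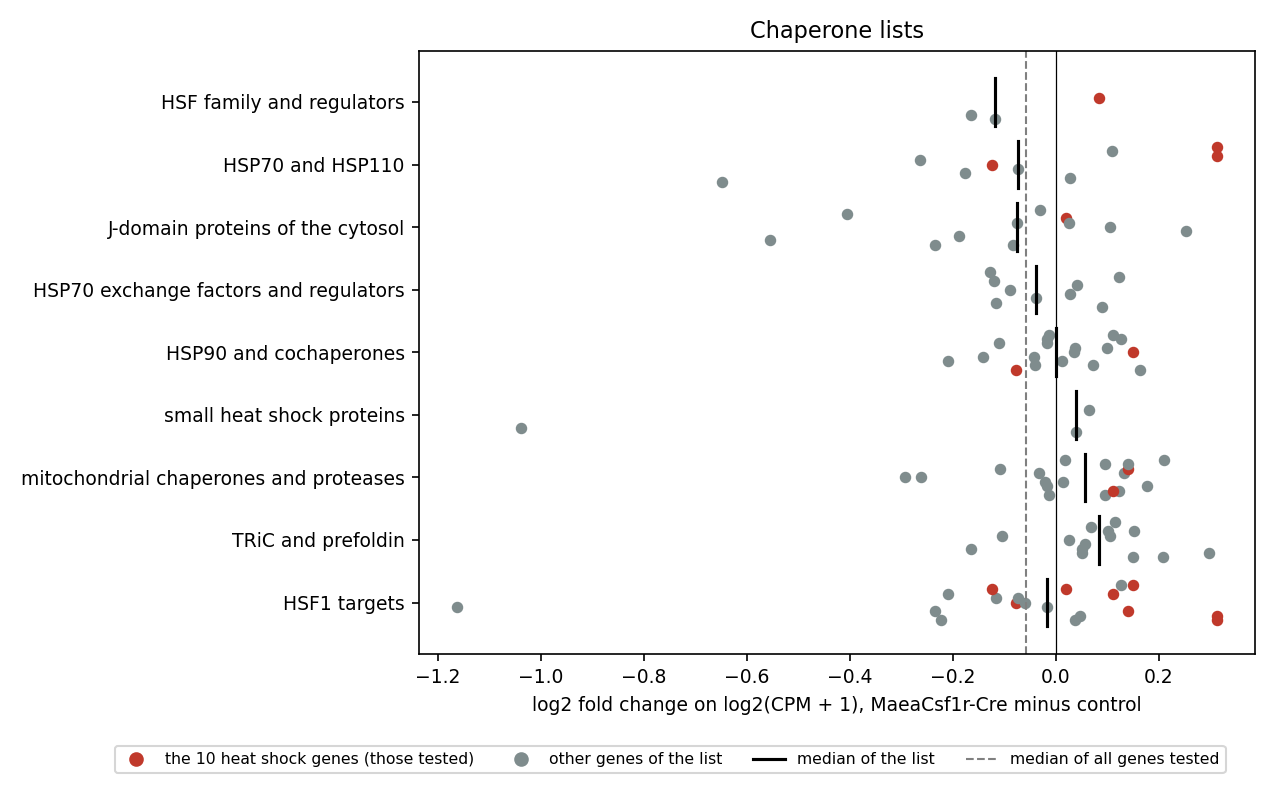
Log2 fold change of each tested gene of the 9 chaperone lists, MaeaCsf1r-Cre minus control on log2(CPM + 1), with the heat shock genes described here in red, other genes in grey and the median of each list as a black bar. List medians lie between -0.12 and 0.08, *Hspb8* at -1.04 and *Serpinh1* at -1.16 lie farthest to the left, and 0 genes passed the adjusted threshold.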

How the data were processed

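Per library, RNA of about 2000 HSCs went through the SMART-Seq v4 and Nextera XT kits. STAR 2.5.3a alignment to mm10, quantification to Ensembl transcripts and normalisation in Partek Flow were done by the authors. They deposited CPM per gene symbol with 0.0001 added, an offset that was subtracted here. Strand was not kept by the kit. Low values fell within 0.01 of whole reads for 70.3 to 72.7% of a library, so counts of reads could not be rebuilt and no count test was run.

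The 12955 genes that reached 1 CPM in 3 or more libraries were tested on log2(CPM + 1) with limma 3.58.1 (R 4.3.3), a moderated test with a mean-variance trend, two-sided, threshold 0.05 after Benjamini-Hochberg adjustment. Such fold changes understate those of low genes. Libraries with the same replicate number deviated from their group means in the same way (Pearson's r 0.627, 0.523 and 0.397 across genes). Other pairings ran from -0.459 to -0.0538, which the centring on group means partly forces. The fit was therefore repeated with the replicate number, which comes from the labels, as a block. On simulated data 170 of 200 genes changed 4-fold and 79 of 200 changed 2-fold were recovered. Coordinates are GENCODE M21 on GRCm38, later than the authors' annotation, and promoter sequences are from RefSeq.

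The heat shock genes and all lists were chosen with earlier results of these data known. Named beside them were, for each list, the 2 other genes with the smallest p and any gene called, and the 5 genes most like each profile, of which 1 is not reported here; *Gm* rows, *Bag6* and the other genes without overlap were named after their values were seen. Alternatives were pseudocounts of 0.1 and 10, other filters and scalings, no trend, the block, a length correction, each library left out, and, added later, near copies summed and both replicate 1 libraries left out.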

Additional observations from a re-analysis of the deposited data

How the results depend on the processing

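Under each alternative for which calls were made, that is all but the one without both replicate 1 libraries, 0 of the heat shock genes and 0 of the wider chaperone genes were called. Over all genes 1 was called (*BC023719*, in none of the lists), against 0 with a pseudocount of 10, 0 with a filter of 10 CPM, 13 with a length correction and the replicate block, and 0 to 3 with each library left out in turn. Without a filter the 1 call was of a gene lower in MaeaCsf1r-Cre HSCs, whereas *BC023719* was higher. The replicate block alone left this count at 1 and changed no call of a heat shock or chaperone gene, but raised the genes with an unadjusted p under 0.05 from 517 to 1805. The median log2 fold change of the heat shock genes, 0.11, ranged from -0.0075 without MaeaCsf1r-Cre replicate 1 to 0.24 without control replicate 1, was 0.21 without MaeaCsf1r-Cre replicate 2, 0.11 without both replicate 1 libraries, 0.17 after rescaling by median ratios and 0.08 with near copies summed.

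The direction was not stable for several genes. With near copies summed *Hspa8* turned to -0.026, with or without the block. With the length correction, with or without the block, *Hsp90ab1* turned to 0.013 and *Hsph1* to 0.0067. With libraries left out in turn the log2 fold change ranged from -0.033 to 0.21 for *Hsf1*, -0.37 to 0.071 for *Hsph1*, -0.067 to 0.093 for *Dnajb1*, -0.091 to 0.35 for *Hspd1* and -0.096 to 0.37 for *Hspe1*. In the same way the difference in log2 ratio ranged from -0.13 to 1.40 for *Hspa1a* plus *Hspa1b* to the *Hspa8* row alone. It ranged from -0.13 to 0.032 for *Hspd1* to *Hspe1*, and from 0.12 to 0.36 for *Hsp90aa1* to *Hsp90ab1*. Over the alternatives that gave a value, *Hspa1b* ranged from 0.0022 without MaeaCsf1r-Cre replicate 2 to 0.68, with none under the 10 CPM filter, *Hsp90aa1* from 0.018 without MaeaCsf1r-Cre replicate 1 to 0.28, and *Maea* from -0.48 to -0.29. *Hspa1b* was above *Hspa8* with a pseudocount of 0.1 (0.42 against 0.31) and below it with one of 10 (0.08 against 0.31). The exact tests of 3 against 3 libraries could not reach a p below 0.1, and counts of reads limit *Hspa1a*, which had 3.1 reads in its lowest library.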
